A study of Mus musculus with 2 samples.

Results

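The super elongation complex was followed here as 10 genes, Mllt1 (which encodes ENL, the protein mutated in this mouse), Mllt3, Aff1, Aff3, Aff4, Dot1l, Cdk9, Ccnt1, Ell and Ell2, chosen by name out of 26612 genes with at least 1 peak region shared by the libraries. A peak belonged to a gene when it overlapped the gene body or the 2 kb upstream of it in the GENCODE M21 annotation of mm10. This rule gave 155 of the 159560 peaks of Enl-WT and 120 of the 130027 peaks of Enl-T1. Of the 110706 regions that hold overlapping peaks of both libraries, 101 belonged to the 10 genes. All 10 genes passed the count minimum of 200 counts over both libraries in each class of nuclei compared below.

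Open chromatin was measured by snATAC-seq, in which a transposase cuts accessible DNA and the fragments are counted per nucleus, in whole kidneys of E15.5 mouse embryos. Enl-WT embryos were Enl+/+ Wt1 GFPCre/+, and Enl-T1 embryos were Enl flox-T1/+ Wt1 GFPCre/+, so the mutation was heterozygous. The GFPCre knock-in inactivates 1 copy of Wt1 in both groups, and Cre acts where Wt1 is or was active, mainly in the nephron and stromal lineages. The T1 mutation, a small in-frame insertion in the YEATS domain, cannot be seen in peak counts. Each group was 1 library, the sources used here do not say how many embryos were pooled, and so no difference below has a replicate spread or a p-value.

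RNA polymerase II pauses shortly after it starts transcription, and the super elongation complex helps to release it. ENL and its paralogue AF9, the product of Mllt3, read acylated lysines of histones through the YEATS domain. They bind scaffold proteins of the AFF family, which hold the kinase pair P-TEFb (CDK9 with cyclin T1) and the ELL factors, and they also bind the histone methyltransferase DOT1L. Gain-of-function mutations of ENL occur in Wilms tumour, a childhood kidney cancer with the look of arrested nephron development.

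Enl-WT gave 9472 nuclei and Enl-T1 gave 12635, with a median of 14789.5 and 8753 counts per nucleus, and 149 barcode sequences occurred in both. A level is given as CPM, the counts of a gene scaled by the total in shared regions of the same class and library, with an interval that covers 95% of counting error only. Clusters were named from marker genes by a rule set after the clusters had been seen. The undifferentiated nephron-like class (the nephron progenitor and early epithelial marker lists joined) had 2186 Enl-WT nuclei and 3934 Enl-T1 nuclei. The stroma-like class had 2958 and 4799, the ureteric epithelium-like class 941 and 1898, the endothelial-like class 773 and 631, and the tubule-like class 1783 and 249. Enl-WT had 328 podocyte-like nuclei and Enl-T1 had 1, so they gave a level in Enl-WT only. Different clusters made up most of the undifferentiated nephron-like class in the libraries, clusters 5 and 10 in Enl-WT and clusters 0 and 11 in Enl-T1. All of these clusters were named by the progenitor list. Summed over its list, the progenitor markers of this class stood at 696 CPM in Enl-WT and 632 CPM in Enl-T1, and the early epithelial markers at 461 and 534 CPM. The early epithelial list stood higher in tubule-like nuclei, at 646 CPM in Enl-WT and 710 CPM in Enl-T1. In Enl-WT it was also higher in ureteric epithelium-like (485 CPM) and podocyte-like nuclei (472 CPM), but in Enl-T1 the ureteric epithelium-like value was lower, at 468 CPM. The part that the marker differences between the libraries have in the results was not tested.

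Mllt1, the mutated gene, lies on chromosome 17 at positions 56892611 to 56935415 on the minus strand and had 3 shared regions. Its start-site region held most of its counts, 1550 of Enl-WT against 1887 of Enl-T1 in the undifferentiated nephron-like nuclei. The bases that lead up to the start site are shown, from RefSeq (GRCm38.p6), because this is the region that carried the signal of the mutated gene, and those of Dot1l are set beside them as another start site of the set. Capitals mark, on either strand, the ETS factor core CCGGAAG, the letters GGGCGG that Sp1-type factors bind and the letters CCAAT that NF-Y binds, and overlapping matches were counted one by one.
Mllt1 upstream of its first exon, chr17:56935416-56935638, minus strand: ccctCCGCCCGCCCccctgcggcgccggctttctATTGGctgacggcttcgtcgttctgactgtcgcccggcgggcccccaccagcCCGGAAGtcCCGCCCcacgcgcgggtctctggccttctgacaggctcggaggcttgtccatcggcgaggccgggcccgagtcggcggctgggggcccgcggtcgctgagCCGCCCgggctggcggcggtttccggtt
Dot1l upstream of its first exon, chr10:80754953-80755202, plus strand: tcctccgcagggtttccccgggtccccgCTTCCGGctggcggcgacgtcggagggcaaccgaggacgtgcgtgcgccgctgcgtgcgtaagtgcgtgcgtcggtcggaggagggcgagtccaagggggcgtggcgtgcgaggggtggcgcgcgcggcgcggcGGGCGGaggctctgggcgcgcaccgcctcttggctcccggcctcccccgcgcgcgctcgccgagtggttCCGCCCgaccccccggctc
All 10 genes matched the RefSeq promoter table, with 12 start sites. In the 250 bases before a start site, GC content ran from 45.2% to 82.0% over the 12, and the median of all 32851 promoters was 52.4%. GGGCGG occurred in 10 of the 12 and in 32.7% of all promoters, CCAAT in 5 of the 12 and in 33.8% of all, and CCGGAAG in 4 of the 12 and in 6.91% of all. TATAAA, the TATA box, occurred in 0 of the 12 and in 12.4% of all. A match says only that the letters stand in the window.

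Across the classes of Enl-WT, the level of the scaffold gene Aff3 varied most between cell types and those of Cdk9 and Ccnt1 least. Mllt1 stood at 111.6 CPM (interval 82.8 to 147) in immune-like nuclei and at 79.6 CPM (72.9 to 86.7) in ureteric epithelium-like nuclei. Those intervals overlapped. In the other 5 classes it ran from 56.5 to 62.5 CPM, below the ureteric epithelium-like level and with overlapping intervals among them. The same order at the top was measured in Enl-T1, with 97.8 CPM in immune-like and 73.9 CPM in ureteric epithelium-like nuclei, where all neighbours in the order overlapped. Mllt3 was low in endothelial-like nuclei, at 100.1 CPM in Enl-WT against 105 CPM in Enl-T1, overlapping the immune-like level in both libraries. It had its highest level of Enl-T1 in ureteric epithelium-like nuclei, 178 CPM.

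Aff3, which encodes an AFF scaffold found in a variant of the complex, had the widest range of the 10. In Enl-WT it stood at 367 CPM (359 to 376) in stroma-like, 233 CPM in undifferentiated nephron-like, 219 CPM in podocyte-like, 178 CPM in tubule-like, 128 CPM in ureteric epithelium-like, 106 CPM in endothelial-like and 39.1 CPM (23.0 to 62.1) in immune-like nuclei. Only the undifferentiated nephron-like and podocyte-like levels overlapped among neighbours in this order. The spread of 3.20 on the log2 scale, with 1 CPM added, was above that of 95.1% of the 19935 genes with at least 10 CPM, whose median was 0.98. Enl-T1 showed the same top and bottom, 360 CPM in stroma-like and 65.2 CPM in immune-like nuclei. A region centred 1.77 kb upstream of the gene was open almost only in stroma-like nuclei. It held 44.6 CPM in stroma-like nuclei of Enl-WT and at most 2.8 CPM in every other class of that library, and 35.6 CPM in stroma-like nuclei of Enl-T1.

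Aff1, the scaffold first known from leukaemia fusions, had the opposite pattern. Stroma-like nuclei were its lowest class, at 121 CPM (116 to 126) for Enl-WT against 119 CPM (114 to 124) for Enl-T1. In Enl-WT the other 6 classes ran from 196 CPM in endothelial-like to 270 CPM in tubule-like nuclei, apart from stroma-like nuclei in their intervals. An intronic region 143.7 kb into Aff1 held 38.6 CPM in tubule-like, 24.7 CPM in ureteric epithelium-like and 8.4 CPM in stroma-like nuclei of Enl-WT. The third scaffold gene, Aff4, ran only from 44.0 to 69.2 CPM, and Dot1l from 53.4 to 79.3 CPM, with overlapping intervals between all neighbours in either order. Among the elongation factors, Ell was highest in immune-like nuclei, at 231 CPM (189 to 280) in Enl-WT and 217 CPM (178 to 262) in Enl-T1, apart from the next class in both. Ell2 was also highest there, at 89.3 CPM (63.8 to 122) in Enl-WT, overlapping podocyte-like nuclei at 73.3 CPM (61.2 to 87.1), and its other 5 classes ran from 37.2 to 53.7 CPM. Cdk9 and Ccnt1, the kinase and cyclin, were the most even in Enl-WT, with spreads of 0.27 and 0.30, which only 1.29% and 2.1% of the 19935 genes stayed below. This was not so in Enl-T1, where log2 spreads with nothing added were 1.03 for Cdk9 and 1.40 for Ccnt1, against 0.36 for Aff4 and 0.47 for Dot1l. The highest levels of Cdk9 and Ccnt1 there, 93.8 CPM (68.6 to 125) and 135 CPM (104 to 171), were those of the 161 immune-like nuclei.

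**Figure D1:**
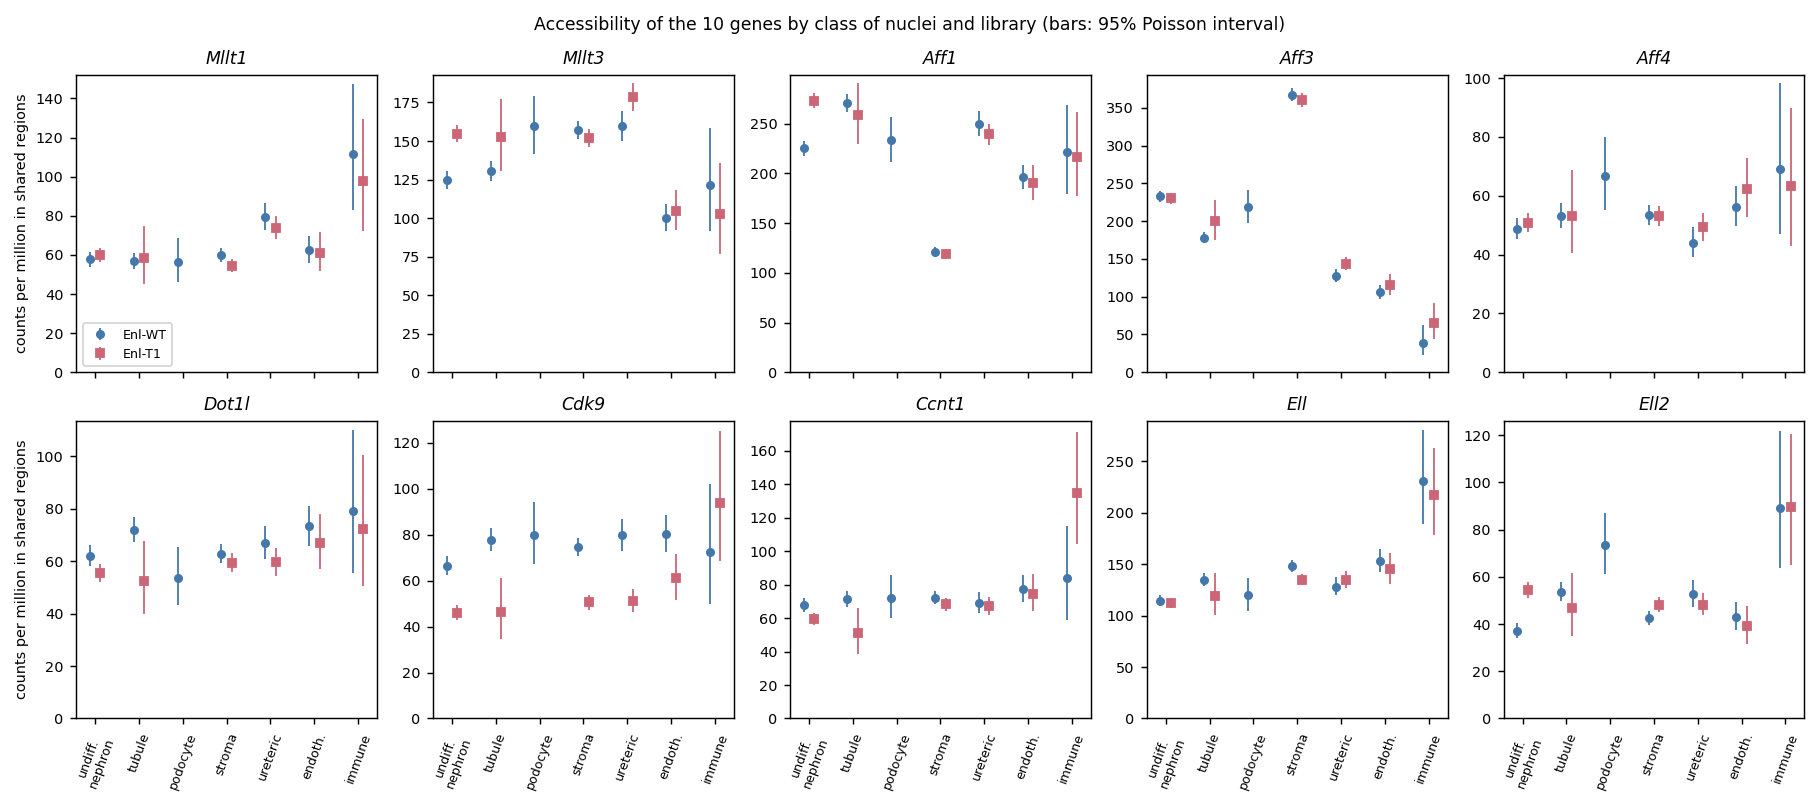
Accessibility of each of the 10 genes (y axis, CPM) by class of nuclei (x axis) in Enl-WT (circles) and Enl-T1 (squares), with 95% Poisson intervals. Aff3 is highest and Aff1 lowest in stroma-like nuclei of both libraries. Cdk9 is lower in Enl-T1 in all classes with a level in both libraries but the immune-like one.

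Per kb of peak, which allows for the unlike peak lengths of genes, Ccnt1 was the most open of the 10. It had 62.2 CPM per kb in Enl-WT against 73.3 in Enl-T1, above 97.1% and 98.3% of 16825 protein-coding genes. Mllt1 stood at 20.9 and 19.9 CPM per kb, above 66.1% and 61.1% of them. The only shared region of Ccnt1 was its start-site region, with peaks of 1151 bases in Enl-WT and 895 in Enl-T1. Not scaled by length, Ccnt1 was at 71.6 and 65.6 CPM. Mllt3, Aff1 and Aff3 average over 23, 23 and 34 shared regions, most of them away from start sites. Mllt3 had the lowest mean over all its peaks, 5.58 and 7.04 CPM per kb. In its regions within 2 kb of its start sites, not scaled by length, it was not the lowest, with 62.1 and 64.5 CPM over all nuclei beside 61.4 and 61.3 CPM for those of Mllt1 and 37.7 and 39.7 CPM for those of Ell2.

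Over all nuclei together, 1 of the 10 genes was past 0.5 log2, Cdk9 on the lower side (2.6% of all genes lower, 3.68% higher). Comparing the libraries by class, 8 of the 10 genes differed by less than 0.5 log2 in the undifferentiated nephron-like nuclei. Ell2 was higher in Enl-T1 and Cdk9 lower. Of all 24461 genes that passed the count minimum, 4.39% were past 0.5 log2 in the higher direction and 5.23% in the lower direction, so 1 gene in each direction out of 10 is not far from this background. The median of the 10 was 0.02 log2 and that of all genes 0.01. In stroma-like nuclei 1 of 10 was past the threshold, Cdk9 on the lower side (2.48% of all genes on that side, 3.12% on the higher), and in ureteric epithelium-like nuclei again Cdk9 alone (1.34% lower, 2.26% higher). None passed it in endothelial-like nuclei (2.33% lower, 2.2% higher), and Cdk9 alone in tubule-like nuclei (9.73% lower, 6.37% higher), of which Enl-T1 had only 249.

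**Figure D2:**
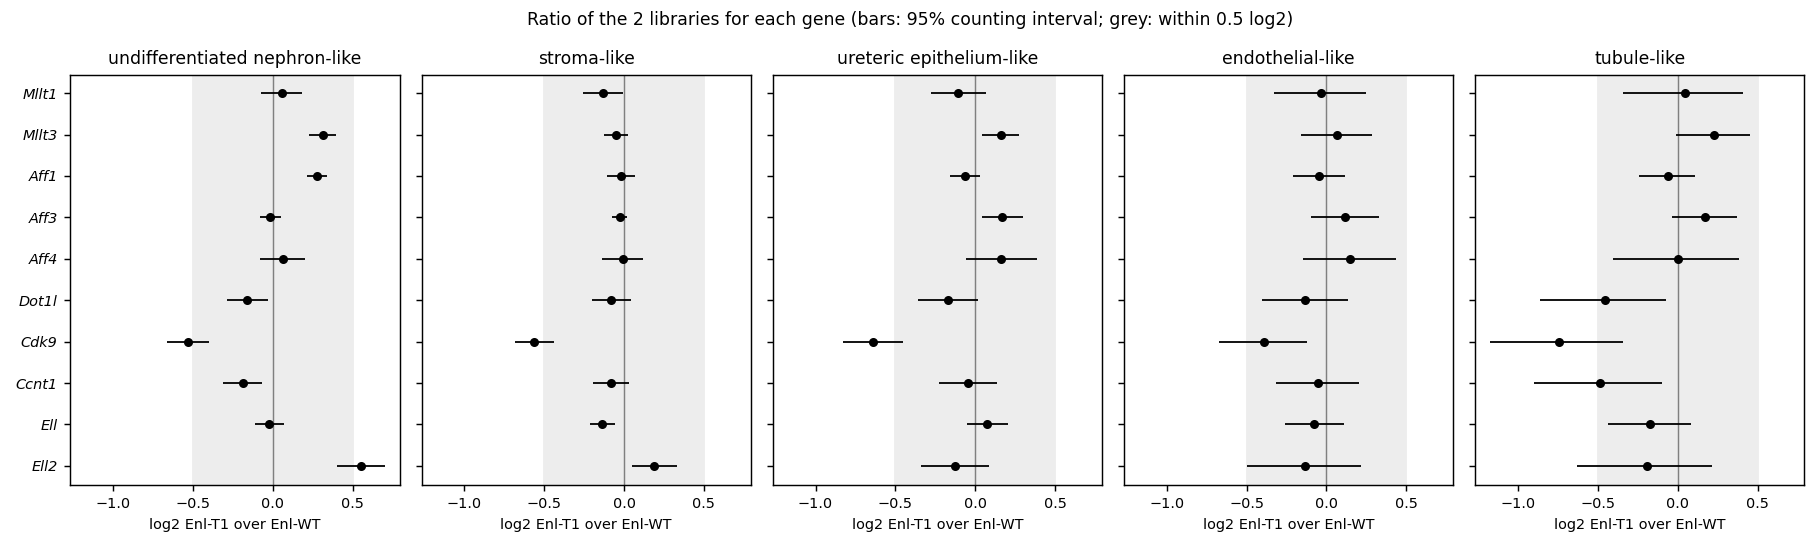
Log2 ratio of Enl-T1 over Enl-WT (x axis) for the 10 genes (rows) in the 5 classes compared, with 95% counting intervals and the range within 0.5 log2 in grey. Ell2 lies beyond the grey range in undifferentiated nephron-like nuclei and Cdk9 in all classes but the endothelial-like one.

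Mllt1 itself stood at 57.8 CPM (54.1 to 61.7) in Enl-WT against 60.1 CPM (56.6 to 63.7) in the undifferentiated nephron-like nuclei of Enl-T1, a log2 ratio of 0.06 (interval -0.07 to 0.18). In stroma-like nuclei it was 59.9 and 54.6 CPM, with a log2 ratio of -0.13 (-0.26 to -0.01). The stroma-like nuclei too lay in different clusters by library, with clusters 8 and 14 almost only in Enl-T1 (1067 and 631 nuclei, against 2 and 29). Within clusters that both libraries filled, Mllt1 was at 62.6 and 47.3 CPM in cluster 1, 48.8 and 49.4 CPM in cluster 2 and 60.5 and 59.7 CPM in cluster 4. Of these 3 only cluster 1 had intervals that did not overlap. Its start-site region had at least 1 fragment in 8.75% (7.59 to 10.0) of Enl-WT and 9.32% (8.41 to 10.3) of Enl-T1 undifferentiated nephron-like nuclei once each nucleus was thinned to 4000 counts. Without thinning the shares were 28.6% and 21.3%, at median depths of 15832 and 10029.5 counts. Thinning left out 22 shallower Enl-WT nuclei and 103 Enl-T1 nuclei.

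Ell2 encodes an elongation factor that raises the speed of the polymerase. In undifferentiated nephron-like nuclei it stood at 37.2 CPM (34.2 to 40.4) in Enl-WT against 54.5 CPM (51.2 to 57.9) in Enl-T1, for a log2 ratio of 0.55 (0.40 to 0.70). In ureteric epithelium-like nuclei it was 52.8 CPM (47.4 to 58.6) and 48.3 CPM (43.7 to 53.2), a log2 ratio of -0.13 (-0.34 to 0.08), and in stroma-like nuclei 42.4 and 48.3 CPM, a log2 ratio of 0.19 (0.05 to 0.33). The interval of the first class did not overlap those of the other two. The value kept its sign when each main cluster of this class in Enl-T1 was set against each in Enl-WT, from 0.37 to 0.67. It was under the threshold with a barcode minimum of 5000 counts (0.47) and with a marker lead of 0.2 log2 (0.45). Both settings left the largest Enl-T1 cluster unnamed, of 2540 nuclei in the first and 2856 in the second, so the barcode minimum also changed which nuclei were in the class.

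At Ell2 the log2 ratios were larger in introns than at the start site. The start-site region held 985 counts of Enl-WT against 1465 of Enl-T1, a log2 ratio of 0.30 (0.14 to 0.47), in peaks of 1137 and 1111 bases. An intronic region 24.1 kb into the gene held 70 and 197 counts, a log2 ratio of 1.22 (0.65 to 1.82). Another, 32.3 kb into the gene, held 52 and 219 counts, a log2 ratio of 1.81 (1.18 to 2.48), in peaks of 835 and 837 bases. The latter stood at 1.70 and 5.93 CPM in undifferentiated nephron-like nuclei, and its log2 ratio was -0.25 (-0.73 to 0.22) in stroma-like nuclei, where it stood at 4.73 and 3.97 CPM. The region at 24.1 kb was higher in Enl-T1 in stroma-like nuclei as well, at 0.46 and 1.36 CPM, a log2 ratio of 1.56 (0.38 to 2.88). In the 4 pairings of clusters the log2 ratio ran from 0.77 to 1.52 at 24.1 kb and from 0.89 to 2.38 at 32.3 kb. The lowest of each, cluster 11 over cluster 10, had an interval that includes 0 (-0.20 to 1.76 and -0.17 to 1.98). The pairings reuse the counts by which these regions were picked, so they are no separate check.

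No overlapping peak in the other library was found for 47872 of the 159560 Enl-WT peaks and for 17478 of the 130027 Enl-T1 peaks (13.4%). For the 10 genes together it was 52 of 155 (33.5%) and 16 of 120 (13.3%), close to those shares. Aff3 held 26 of the 52, out of its 60 Enl-WT peaks (43.3%), and 4 of its 39 Enl-T1 peaks had no overlapping Enl-WT peak. Ell2 was the only one of the 10 genes with more peaks in Enl-T1 (10) than in Enl-WT (7), and 6 of the 10 had no overlapping Enl-WT peak. Those 6 held 1.13 to 6.38 CPM in undifferentiated nephron-like nuclei of Enl-T1, here scaled to the counts in all peaks. The strongest, 18.7 kb into the gene, held 249 counts there (6.38 CPM) and 31 counts in stroma-like nuclei (0.82 CPM). Conversely, a peak of Enl-WT only, 42.9 kb into the gene, held 127 counts (3.70 CPM) in undifferentiated nephron-like nuclei and 48 counts (1.18 CPM) in stroma-like nuclei. Each matrix counts over its own library's peaks, so such peaks gave no ratio of their own.

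**Figure D3:**
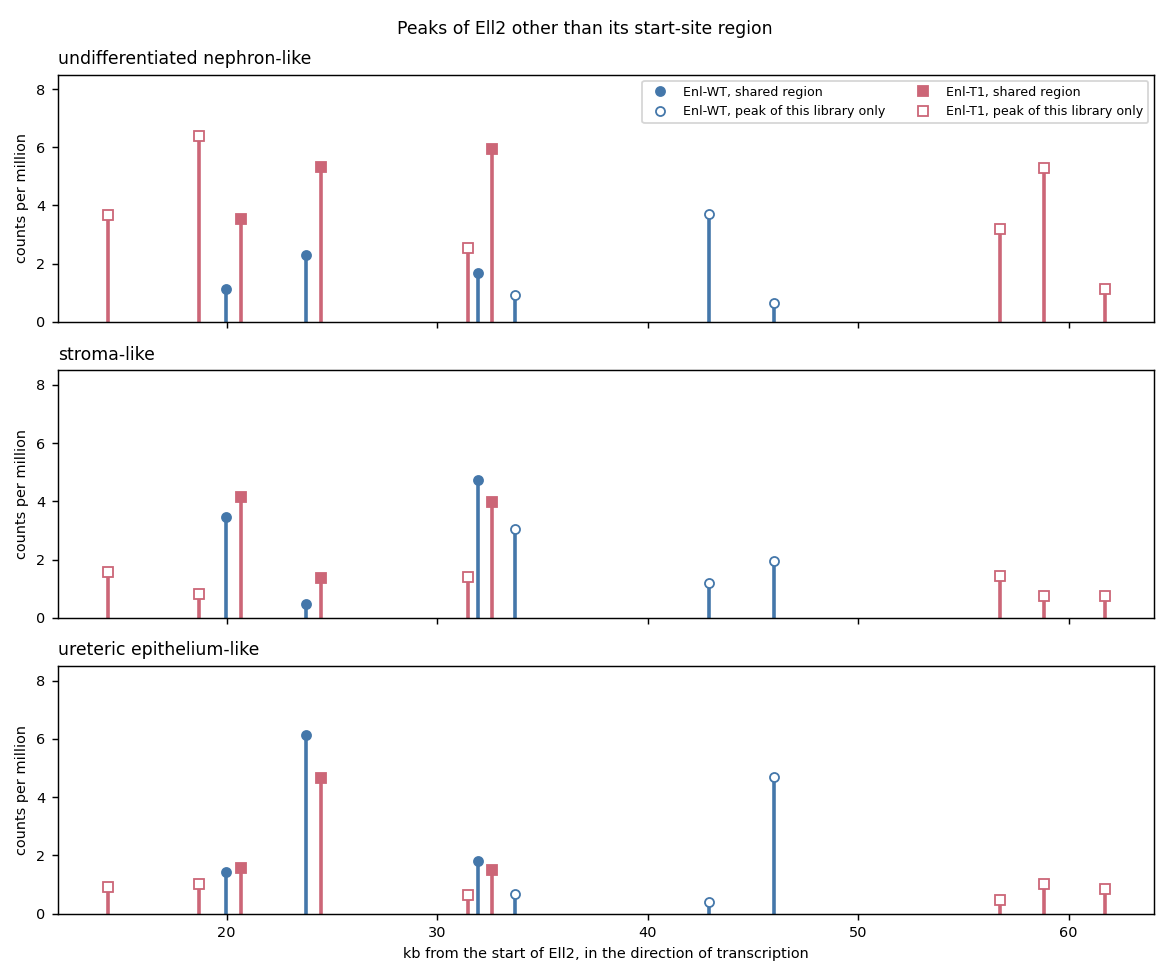
Level of each Ell2 peak except the start-site region (y axis, CPM) by distance from the start of the gene (x axis) in 3 classes, filled for regions shared by the libraries and open for peaks of 1 library. In undifferentiated nephron-like nuclei the Enl-T1 symbols stand above those of Enl-WT at all 3 shared regions.

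Mllt3 and Aff1 also had higher levels in the undifferentiated nephron-like nuclei of Enl-T1, below the threshold of 0.5 log2. Mllt3 stood at 125 CPM (119 to 130) and 155 CPM (149 to 161), a log2 ratio of 0.31 (0.23 to 0.40), and Aff1 at 225 CPM (218 to 233) and 273 CPM (266 to 281), a log2 ratio of 0.28 (0.22 to 0.34). Over the pairings of the main clusters of this class, the ratio ran from 0.13 to 0.45 for Mllt3 and from 0.04 to 0.44 for Aff1. Both were lowest for cluster 11 of Enl-T1 over cluster 10 of Enl-WT, with intervals that include 0 (-0.01 to 0.28 and -0.06 to 0.15). In stroma-like nuclei both genes were near 0, at -0.05 (-0.12 to 0.03) and -0.02 (-0.11 to 0.07). Of the 20 Aff1 regions that passed the count minimum in undifferentiated nephron-like nuclei, 18 had a log2 ratio above 0, with a median of 0.24. For Mllt3 it was 6 of 12, with a median of 0.08 and a highest value of 1.58.

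Among all 101 shared regions of the 10 genes, 25 within 2 kb of a start site of any gene and 50 farther away passed the count minimum in this class. Past 1 log2, 0 of the 25 were higher and 0 lower (1.19% and 1.97% of all such regions). Of the 50, 8 were higher and 3 lower, against 6.2% and 4.92% of all 48629 regions of that kind. The 8 were in Mllt3 (3), Aff3 (2), Ell2 (2) and Aff1 (1), and the 3 lower ones were in Aff3. With a marker lead of 0.2 log2, which leaves out cluster 0, 1 higher and 0 lower regions were past 1 log2 with enough counts. The 1 was the Mllt3 region described next, at 1.41, and the other 7 ran from 0.51 to 1.09.

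The strongest in counts was a region 198.9 kb into Mllt3 that covers an annotated exon and flanking intron, with 209 counts (6.81 CPM) in Enl-WT against 754 (20.4 CPM) in Enl-T1, giving a log2 ratio of 1.58 (1.27 to 1.91). It stood at 2.47 and 3.66 CPM in stroma-like nuclei, and its log2 ratio ranged from 1.47 to 1.69 over the 4 pairings of clusters. Intronic regions of Mllt3 at 55.2 and 188.6 kb had log2 ratios of 1.05 (0.64 to 1.47) and 1.09 (0.63 to 1.56). The Mllt3 start-site region had 0.19 (0.03 to 0.34).

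Over shared regions Aff3 differed by less than counting error in this class, at 233 and 230 CPM, a log2 ratio of -0.02 (-0.08 to 0.05). With all peak rows of each library, which add the peaks of 1 library, it was -0.28. Its shared regions went both ways. Regions at 102.1, 194.3 and 235.5 kb were lower in Enl-T1, with log2 ratios of -1.0 (-1.39 to -0.63), -1.07 (-1.64 to -0.51) and -1.17 (-1.74 to -0.62). Regions at 306.5 and 412.4 kb were higher, with 1.22 (0.74 to 1.73) and 1.02 (0.51 to 1.54). Both higher regions were most open in stroma-like nuclei, at 15.2 and 19.9 CPM in Enl-WT, while in undifferentiated nephron-like nuclei they went from 3.13 to 7.31 and from 3.0 to 6.06 CPM. The region at 306.5 kb and the Aff1 region (79.6 kb) were called wider in Enl-T1, and per kb of peak their log2 ratios were 0.50 and 0.12.

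**Figure D4:**
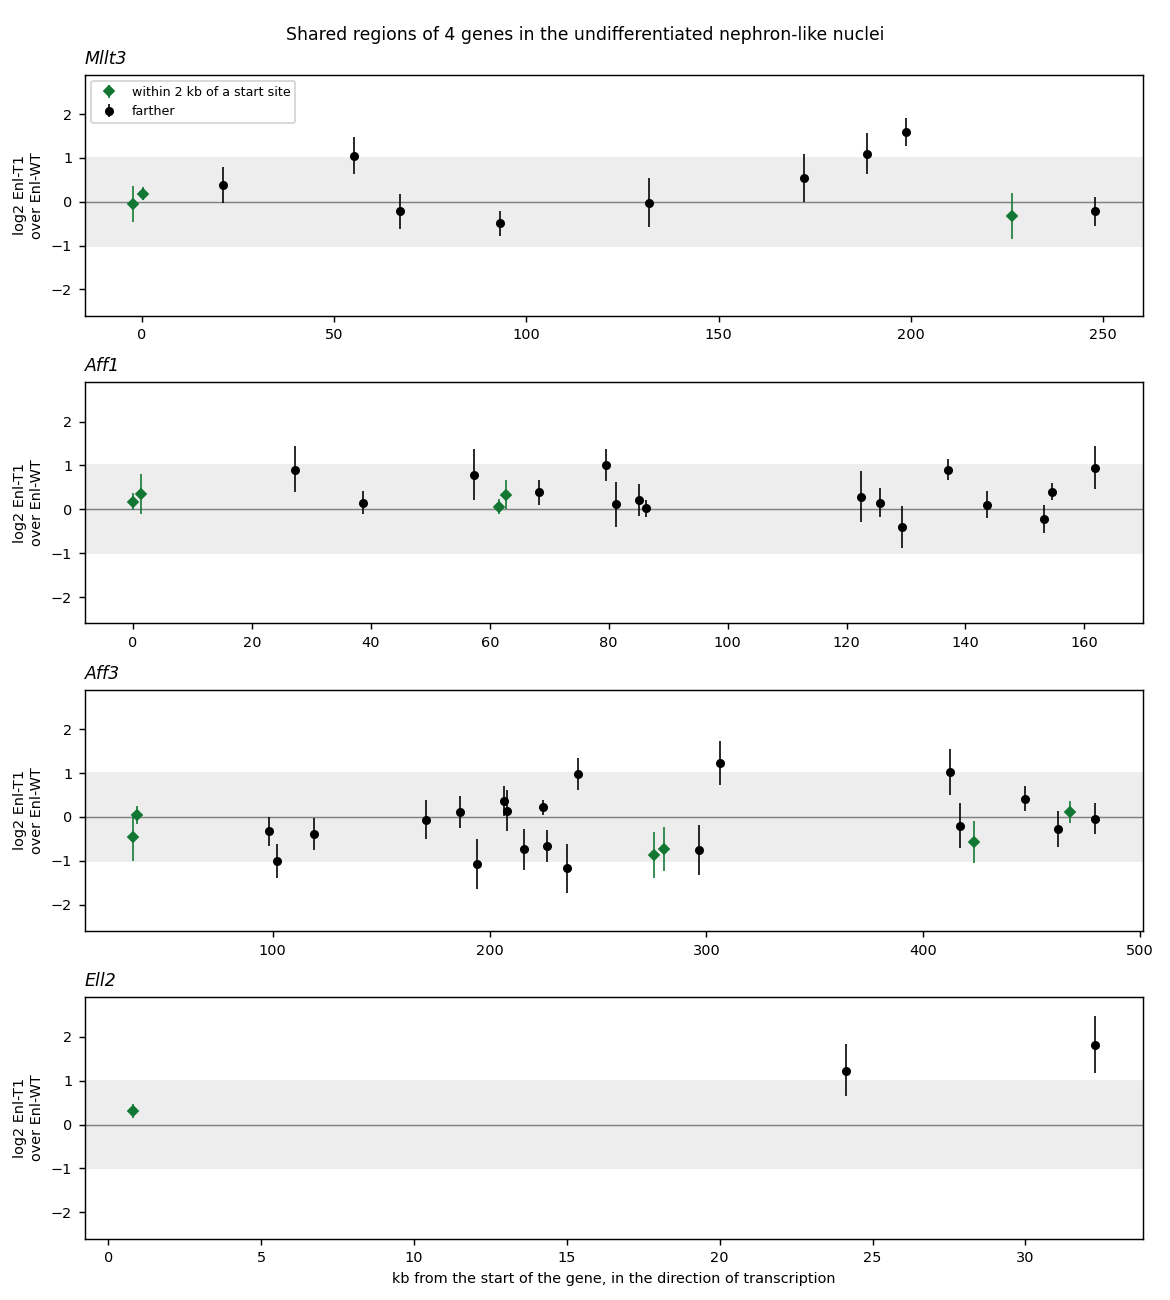
Log2 ratio of Enl-T1 over Enl-WT (y axis, 95% counting intervals) for the shared regions of Mllt3, Aff1, Aff3 and Ell2 with at least 200 counts in undifferentiated nephron-like nuclei, by kb from the start of the gene (x axis). Regions near a start site (diamonds) stay within 1 log2 (grey), and farther regions (circles) pass it in both directions in Aff3.

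The central 300 bases of regions that differed are shown (GRCm38.p6, plus strand), with the Ell2 and Mllt3 introns that were higher first, then the higher and a lower region of Aff3. Capitals mark TTTATNG (the core of posterior HOX sites), GGAATG (TEAD) and TGANTCA (AP-1) on either strand.
Ell2 intron, 32.3 kb, chr13:75738886-75739185, plus strand: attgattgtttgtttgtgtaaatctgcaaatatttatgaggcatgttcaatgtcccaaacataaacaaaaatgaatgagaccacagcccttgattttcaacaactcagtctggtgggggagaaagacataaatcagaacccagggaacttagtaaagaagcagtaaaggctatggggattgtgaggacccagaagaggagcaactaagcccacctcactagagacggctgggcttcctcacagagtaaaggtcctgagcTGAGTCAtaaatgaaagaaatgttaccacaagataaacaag
Ell2 intron, 24.1 kb, chr13:75730724-75731023, plus strand: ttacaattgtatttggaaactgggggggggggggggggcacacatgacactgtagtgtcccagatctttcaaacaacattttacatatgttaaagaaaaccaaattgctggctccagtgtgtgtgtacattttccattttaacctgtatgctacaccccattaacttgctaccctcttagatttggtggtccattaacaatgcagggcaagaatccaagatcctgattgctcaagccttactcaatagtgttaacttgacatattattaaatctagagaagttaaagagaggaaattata
Mllt3 intron, 55.2 kb, chr4:87977994-87978293, plus strand: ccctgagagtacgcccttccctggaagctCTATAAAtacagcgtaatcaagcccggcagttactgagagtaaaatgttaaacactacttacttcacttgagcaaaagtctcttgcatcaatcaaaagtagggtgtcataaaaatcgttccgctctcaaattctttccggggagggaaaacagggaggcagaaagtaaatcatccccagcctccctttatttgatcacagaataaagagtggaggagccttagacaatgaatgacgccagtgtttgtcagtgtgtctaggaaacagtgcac
Mllt3 intron, 188.6 kb, chr4:87844637-87844936, plus strand: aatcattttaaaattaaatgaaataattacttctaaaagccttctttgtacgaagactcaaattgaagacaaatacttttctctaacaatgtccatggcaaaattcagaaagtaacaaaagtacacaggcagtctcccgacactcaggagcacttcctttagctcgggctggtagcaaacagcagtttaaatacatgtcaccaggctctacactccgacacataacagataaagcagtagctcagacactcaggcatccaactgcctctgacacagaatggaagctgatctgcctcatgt
Aff3 intron, 306.5 kb, higher, chr1:38358351-38358650, plus strand: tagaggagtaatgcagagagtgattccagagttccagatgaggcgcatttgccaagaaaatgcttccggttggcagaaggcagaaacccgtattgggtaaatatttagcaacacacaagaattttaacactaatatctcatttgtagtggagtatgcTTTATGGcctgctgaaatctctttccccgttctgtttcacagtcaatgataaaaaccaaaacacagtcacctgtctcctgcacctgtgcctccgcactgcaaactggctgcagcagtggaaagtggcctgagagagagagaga
Aff3 intron, 102.1 kb, lower, chr1:38562701-38563000, plus strand: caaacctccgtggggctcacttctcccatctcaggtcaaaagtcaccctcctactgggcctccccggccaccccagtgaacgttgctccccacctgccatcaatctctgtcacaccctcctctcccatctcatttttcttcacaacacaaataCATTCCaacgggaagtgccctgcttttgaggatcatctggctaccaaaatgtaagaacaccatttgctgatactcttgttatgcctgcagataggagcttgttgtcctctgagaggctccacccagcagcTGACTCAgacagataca
TTTATNG stood in 4 of the 8 higher regions, 1 of the 3 lower ones, 17 of the 72 member regions beyond 2 kb of a start site and 17.9% of 79822 such regions of all genes. GGAATG was in 0 of the 8, 1 of the 3 and 19.6% of all, and TGANTCA in 1 of the 8, 1 of the 3 and 11.3% of all. TCANGTTTC, the core of sites of Six2 and its relatives, was in 0 of the 8, 0 of the 3 and 2.07% of all, and the HNF1 motif in 0 of both and 0.0827% of all. These motifs were picked after the values of the regions were known.

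Cdk9, the kinase of P-TEFb, was lower in Enl-T1 in all 5 classes. It stood at 66.6 CPM (62.6 to 70.8) and 46.0 CPM (43.0 to 49.2) in undifferentiated nephron-like nuclei, a log2 ratio of -0.53 (-0.67 to -0.40). In stroma-like nuclei it was 74.6 and 50.5 CPM, a log2 ratio of -0.56 (-0.69 to -0.44). The ureteric epithelium-like levels were 79.8 and 51.2 CPM, a log2 ratio of -0.64 (-0.83 to -0.45). The intervals of both libraries did not overlap in any of these 3 classes. The ratio was -0.39 (-0.67 to -0.12) in endothelial-like nuclei and -0.74 (-1.17 to -0.34) in tubule-like nuclei.

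The width of the called peak moved with this result. The start-site peak of Cdk9 was 1287 bases wide in Enl-WT and 806 in Enl-T1, and counts outside a library's own peak do not enter its value. Per kb of peak, the log2 ratio of the start-site region was 0.05 in undifferentiated nephron-like nuclei and 0.08 in stroma-like nuclei. Over all regions of a gene, the median of all genes per kb was 0.13 and 0.14 in these classes. Cdk9 taken that way was at -0.17 in stroma-like nuclei. Over the 1275 promoter regions with a like change in width (within 0.1 log2), the median log2 ratio was -0.23 in undifferentiated nephron-like nuclei, against -0.63 (-0.77 to -0.49) for the Cdk9 region. With only regions that overlapped by 80% in both directions, which leaves out this start-site region, the ratio of Cdk9 in that class was 0.20. How much of the lower value is width was not tested. After thinning, the share of nuclei with a fragment at the peak was 10.4% (9.10 to 11.7) for Enl-WT against 7.53% (6.71 to 8.41) for Enl-T1, read over the same peaks of unequal width.

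Ccnt1, the cyclin partner, and Dot1l had narrower start-site peaks too, 1151 and 895 bases for Ccnt1 and 1428 and 903 for Dot1l. Ccnt1 was at 67.9 and 59.5 CPM in undifferentiated nephron-like nuclei, a log2 ratio of -0.19 (-0.31 to -0.07), and its start-site region at 0.17 per kb of peak. Dot1l was at 61.9 and 55.4 CPM, a log2 ratio of -0.16 (-0.29 to -0.03), and its start-site region at 0.48 per kb. Both lay below 0 by counts. Over all regions of the gene, per kb, Dot1l was at 0.19, and Ccnt1, with 1 shared region, again at 0.17. The median of all genes was 0.13, but a narrower peak raises a value per kb. By counts, the median of promoter regions with a like change in width was -0.08 for Ccnt1 and -0.22 for Dot1l. Their start-site regions were at -0.19 (-0.31 to -0.07) and -0.18 (-0.33 to -0.03). Aff4 and Ell differed by less than counting error in this class, with log2 ratios of 0.06 (-0.08 to 0.20) and -0.02 (-0.11 to 0.07).

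**Figure D5:**
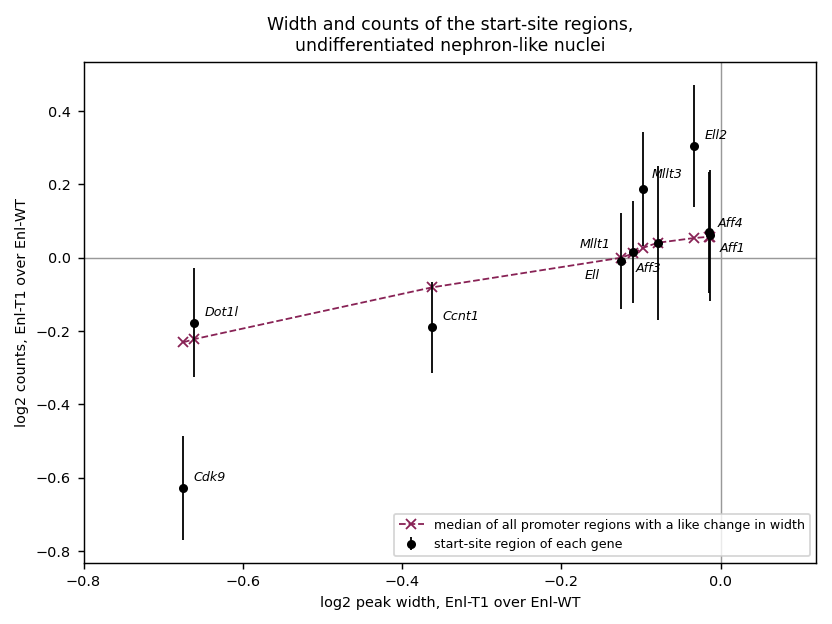
Log2 ratio of counts in the start-site region (y axis, 95% counting intervals) against the log2 ratio of its peak width (x axis), Enl-T1 over Enl-WT, for the 10 genes in undifferentiated nephron-like nuclei, with the median of all promoter regions of like width change (crosses). Cdk9 lies below the median at its width and Ell2 above.

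Outside the undifferentiated nephron-like class, few member regions passed 1 log2. Within 2 kb of a start site, 0 of 26 did so in stroma-like nuclei (0.459% of all higher, 0.536% lower), 0 of 19 in ureteric epithelium-like nuclei (0.328% higher, 0.212% lower) and 0 of 12 in endothelial-like nuclei (0.0451% higher, 0.315% lower). In tubule-like nuclei 1 of 18 was lower (4.05% lower, 0.978% higher), an Aff3 region with 282 and 4 counts. It lies in an intron 423.6 kb into Aff3, near a start site of another gene. Its log2 ratio was -2.68 (-5.74 to -0.80), in peaks of 1735 and 926 bases, and -1.77 per kb. In stroma-like nuclei 1 of 52 beyond 2 kb passed 1 log2, lower (1.33% of all on that side, 2.21% on the higher). It lay 172.1 kb into Mllt3, with 346 and 119 counts in peaks of 2212 and 867 bases, a log2 ratio of -1.51 (-1.96 to -1.08) and -0.16 per kb. In ureteric epithelium-like nuclei 1 of 20 did, lower (0.436% lower, 0.868% higher), 129.3 kb into Aff1, with -1.36 (-1.90 to -0.84) in peaks of 1671 and 728 bases and -0.16 per kb. In endothelial-like nuclei 0 of 3 did (1.89% lower, 0.153% higher). In tubule-like nuclei 3 of 14 beyond 2 kb were lower (11.6% of all, 4.12% higher), all in Aff1. The region at 143.7 kb had 951 and 33 counts and a log2 ratio of -1.39 (-2.19 to -0.68). The one at 129.3 kb had -1.83 (-3.90 to -0.36), and -0.63 per kb of peak, and the one at 43.2 kb had -1.06 with an interval that includes 0 (-2.39 to 0.02). The tubule-like class was made up differently in each library, since cluster 12 held 191 of its 249 Enl-T1 nuclei and 546 of its 1783 Enl-WT nuclei. With doublets removed, the class had 87 Enl-T1 and 1273 Enl-WT nuclei. Its summed proximal tubule markers stood at 305 CPM in Enl-WT and 202 CPM in Enl-T1, its distal ones at 364 and 278 CPM. Undifferentiated nephron-like nuclei of Enl-T1 had 198 CPM of the proximal and 148 CPM of the distal markers. The part of these differences in the tubule-like values was not tested.

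The rest of the elongation machinery was read from a list of 31 further genes. In undifferentiated nephron-like nuclei 0 of 31 passed 0.5 log2 in either direction (9.62% of all genes did), with a median of -0.0046 and a range from -0.35 to 0.32. In stroma-like nuclei 1 of 31 did (5.6% of all genes). This was Ell3, a paralogue of Ell, with 450 and 234 counts (12.2 and 6.50 CPM), a log2 ratio of -0.91 (-1.25 to -0.58). Its peak was 1312 bases wide in Enl-WT and 890 in Enl-T1, and per kb the ratio was -0.35. In ureteric epithelium-like nuclei 0 of 31 passed (3.6% of all genes), in endothelial-like nuclei 1 of the 30 with enough counts (4.52%), and in tubule-like nuclei 3 of 31 (16.1%). Over all nuclei 1 of 31 did (6.28%).

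The genes most like Mllt1 over 13 sums of class and library were Gm11998 (Pearson r of 0.99), Gdf15 (0.97) and Cnot1 (0.97), out of 19898 genes averaging at least 10 CPM. Those most like Aff3 were Gata5 (0.97), Pknox2 (0.97) and Thpo (0.97). These 13 points share 2 libraries, and the highest Mllt1 level among them, 111.6 CPM, is that of only 100 immune-like nuclei of Enl-WT. Gm11998 is an antisense gene, and open chromatin carries no strand.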

How the data were processed

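Per the submitters' processing notes, the authors ran Cell Ranger ATAC 2.1.0 on mm10. Each library has its own peak set, for which the authors deposited raw counts per peak and barcode. About 2 counts stand for 1 fragment, since both ends were counted. Barcodes with 2000 to 100000 counts were kept (138015168 counts in Enl-WT, 109444579 in Enl-T1). Overlapping peaks of the libraries were joined into shared regions. Nuclei were clustered together (latent semantic indexing, components 2 to 30, Leiden resolution 1, leidenalg 0.10.2), giving 28 clusters, with no integration and no removal of doublets. Clusters were named by the highest mean marker ratio to the median cluster (at least 0.4 log2, with 3 raised markers and a lead of 0.1 over other lineages), and marker lists were joined into broader classes. These rules were set after the clusters were seen.

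Counts were summed per gene, class and library and scaled to CPM. Intervals are exact (Poisson or conditional binomial on fragments, Clopper-Pearson for shares) at 95% and cover counting error only. A gene was called at 0.5 log2 and a region at 1 log2, both with at least 200 counts. Nuclei are not replicates and no test was run. All members were named, other pathway genes when past 0.5 log2 in undifferentiated nephron-like or stroma-like nuclei (at most 5 per class), and the 3 genes most like Mllt1 and the widest-ranging member by Pearson r of log2(CPM + 1). The ratio and its interval were checked on counts simulated with the same counting error. This holds no spread between nuclei, clusters or peak widths, so it cannot vouch for the intervals beyond counting error. The members, lists and thresholds were chosen with earlier results of these data known. Peaks of 1 library entered no ratio except in the alternative with all peak rows of each library.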

Additional observations from a re-analysis of the deposited data

How the results depend on the processing

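No paired analysis was possible because each group was 1 library. The counts of genes past 0.5 log2 were small, so a single gene crossing the threshold moved them. In undifferentiated nephron-like nuclei, Ell2 dropped out of the higher side (0 genes) with a minimum of 5000 counts, with start-site regions only and with a marker lead of 0.2 log2, and Cdk9 dropped out of the lower side (0 genes) with all peak rows of each library, reciprocal overlap of 80%, scaling to all peak counts, the share of thinned nuclei and per kb of peak. Cdk9 changed sign once, to 0.20, with reciprocal overlap of 80%, which leaves only its smaller region. In stroma-like nuclei Cdk9 dropped out (0 genes) under the same 5 settings, and in ureteric epithelium-like nuclei (0) under reciprocal overlap, thinned shares and per kb. In tubule-like nuclei the lower side had 0 genes with reciprocal overlap and per kb, 2 with 5000 counts and with resolution 0.5, and 3 with doublets removed, which also gave 1 higher. Member regions past 1 log2 in undifferentiated nephron-like nuclei were 3 higher and 1 lower with 5000 counts, 1 higher and 0 lower with a marker lead of 0.2 log2, 1 lower with doublets removed and 1 lower per kb. Both the lead and the 5000 counts left the largest Enl-T1 cluster out of this class. Per kb, stroma-like nuclei had 1 higher and 0 lower and ureteric epithelium-like nuclei 0 lower, and tubule-like nuclei had 1 higher with median-of-ratios scaling and with components 2 to 15. Stroma-like nuclei had 2 lower with doublets removed. Further pathway genes past 0.5 log2 per kb numbered 1 in undifferentiated nephron-like nuclei, 0 in stroma-like nuclei, 1 in ureteric epithelium-like nuclei, 3 in endothelial-like nuclei and 6 in tubule-like nuclei, and 0 in endothelial-like nuclei with 5000 counts. Per kb scaling moved the median of all genes by up to 0.14 log2 (to 0.138 in stroma-like nuclei). The value per kb, the comparisons between clusters and the region counts by marker lead, doublets, resolution and components were added after the data were seen. Ell2 in undifferentiated nephron-like nuclei stayed above 0 in all 13 alternatives, from 0.30 to 0.94, and Mllt3 and Aff1 did so too, from 0.12 to 0.50 and from 0.11 to 0.43. The 0.94 came with all peak rows of each library, which add 6 Ell2 peaks called only in Enl-T1 and 3 called only in Enl-WT. All 13 alternatives reuse counts of the same 2 libraries, so they are no separate check. These 13 leave out the pairings of clusters, where the lowest values of Mllt3 and Aff1 were 0.13 and 0.04, with intervals that include 0. Depth left 12 and 3 member regions, near to and far from start sites, with enough counts in endothelial-like nuclei and 18 and 14 in tubule-like nuclei.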
